A study of Mus musculus with 4 samples.

Results

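The peaks described here are those called from 85 to 90 Mb on mouse chromosome 2 (mm9), a stretch known for a large cluster of olfactory receptor genes. Every peak in a deposited list that started in this 5 Mb block was taken, whatever its score. That gave 139 of 109740 peaks in proliferating cells and 1517 of 699290 peaks in arrested cells, or 1656 of 809030 over both lists. The cells were mouse embryonic fibroblasts (MEFs), primary connective tissue cells from C57BL/6 embryos at E13.5, used at passage 4. Proliferating cells grew asynchronously in 10% serum, and arrested cells were kept in 0.1% serum for 72 hours. Each state was profiled by chromatin immunoprecipitation and sequencing (ChIP-seq) with antibodies to pRb, the retinoblastoma protein, in 1 library. Both libraries are labelled KO without naming the gene removed, and it is not stated whether pRb was still made. The peaks are therefore described as calls and not as sites bound by pRb.

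Olfactory receptors are the odorant-sensing G protein-coupled receptors of the nose, and they form the largest gene family of the mouse. Each olfactory neuron expresses a single allele of the family, and the remaining genes there lie in compact, repressed chromatin. In fibroblasts the family is silent. pRb is a repressor of E2F-driven cell cycle genes and is active when it carries few phosphates, as in arrested cells. In RefSeq's table of mouse genes for the build GRCm38, 377 of 1428 genes with an Olfr symbol were on chromosome 2, more than the 294 on chromosome 7. Of the 377, 287 were listed as protein coding and 85 as pseudogenes. The longest run of neighbouring protein-coding genes on chromosome 2 that all had Olfr symbols reached from Olfr153 to Olfr1274 and held 123 genes. These names come from another build than the peaks and were used for names and neighbours only. Which peak lay in or near which receptor gene was not analysed here, and neither was expression. The description of the block as a receptor cluster therefore rests on background knowledge and was not tested with these files.

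The cluster block held fewer peaks than most of chromosome 2 in proliferating cells, and more than most of it in arrested cells. Proliferating cells had 27.8 peaks per Mb in the block and 45.9 per Mb in the other 35 complete 5 Mb blocks of the chromosome, a ratio of 0.606 (95% interval 0.508 to 0.716). Arrested cells had 303 per Mb in the block and 275 per Mb in the others, a ratio of 1.10 (interval 1.05 to 1.16). By number of peaks the block thus lay below the rest of the chromosome in one growth state and above it in the other. The intervals are exact binomial ones and cover only counting error. Each growth state had 1 library, which left no replicate against which to test these differences, so no p-value is given, and blocks and peaks are not replicates.

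Among the 36 complete blocks of chromosome 2, the block ranked 34 by number of proliferating peaks and 2 by number of arrested peaks. The only blocks with fewer proliferating peaks were the one from 0 to 5 Mb, which had 84, and the last complete one of the chromosome, which had 101. Both were also the sparsest in arrested cells, with 585 and 866 peaks, whereas the cluster block had 1517. Without these, a choice made after seeing the data, the other 33 blocks held 185 to 272 proliferating peaks (238 ± 19.6, mean and SD over blocks) and 1294 to 1526 arrested peaks (1413 ± 56.6). The proliferating count of 139 was thus outside the range of the 33 blocks, and the arrested count of 1517 was inside it. Against these 33 blocks the density ratio was 0.584 in proliferating cells (interval 0.491 to 0.691). In arrested cells it was 1.07 (1.02 to 1.13). The densest proliferating block lay from 60 to 65 Mb with 272 peaks, and the densest arrested block from 145 to 150 Mb with 1526.

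**Figure D1:**
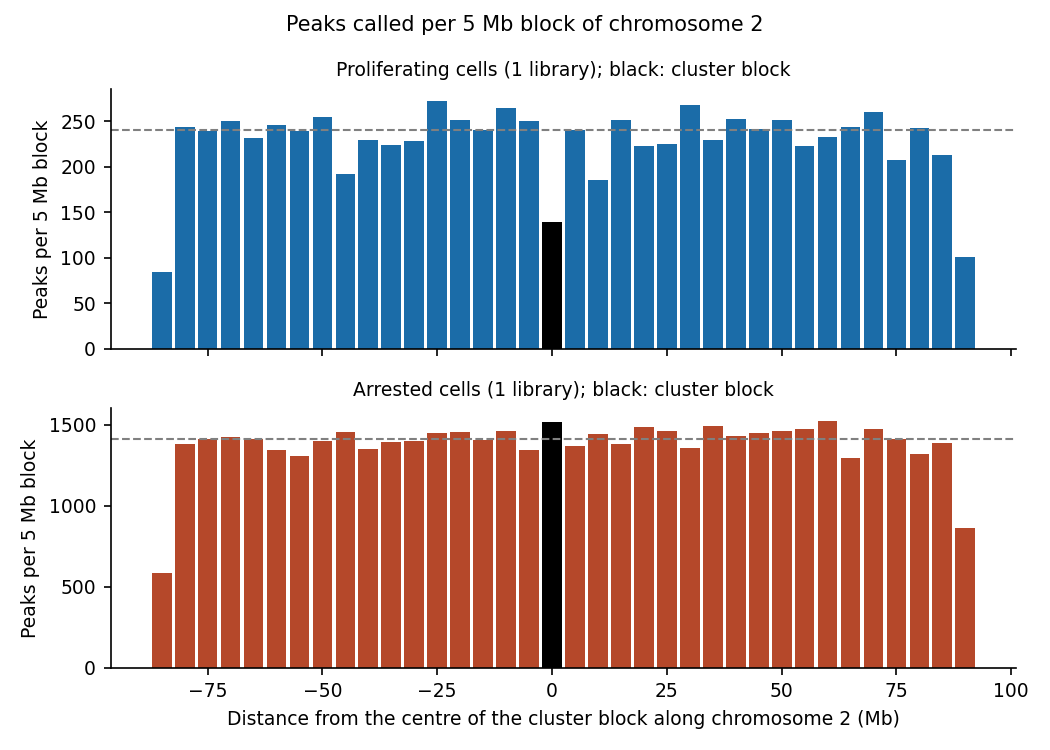
Number of peaks (vertical axes) in each complete 5 Mb block of chromosome 2, by distance of the block's centre from that of the cluster block in Mb (horizontal axis), for proliferating (top) and arrested cells (bottom), 1 library each. The black bar is the cluster block, with 139 proliferating and 1517 arrested peaks, and the dashed lines are the medians of the other 35 blocks, 240 and 1414.

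Both neighbouring blocks lay, by both counts, inside the range of the other blocks without the first and the last complete one. By arrested peaks the one from 80 to 85 Mb was on the low side, at rank 31 of 36. The block from 80 to 85 Mb held 250 proliferating and 1342 arrested peaks, and the block from 90 to 95 Mb held 240 and 1370. Arrested peaks thus numbered 5.37 and 5.71 per proliferating peak in the neighbours and 10.9 per proliferating peak in the cluster block (interval 9.17 to 13.1). Over the other 35 blocks pooled the ratio was 5.99, and single blocks ranged from 5.07 to 8.57. The cluster block had the highest ratio of the 36.

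The same ranking was made over all autosomes, leaving out blocks with fewer than 691 arrested peaks, which is 50% of the autosomal median of 1382. Of the 464 blocks that remained, the cluster block had the highest number of arrested peaks per proliferating peak. The other 463 ranged from 4.23 to 10.7 with a median of 6.29. Next came the block from 110 to 115 Mb on chromosome 14, with 116 proliferating and 1239 arrested peaks. By arrested peaks alone the cluster block ranked 8 of 464, and by proliferating peaks alone it ranked 12 from the bottom. In the plot of autosomal blocks it lies at the upper left, where few proliferating and many arrested peaks meet. Close to it were the block from 115 to 120 Mb on chromosome 12, with 151 proliferating and 1500 arrested peaks, and the block from 60 to 65 Mb on chromosome 7, with 164 and 1514. These ranks describe 1 library of each state, and the 2 lists differ 6.37-fold in total size, so the ratio is read only between blocks.

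**Figure D2:**
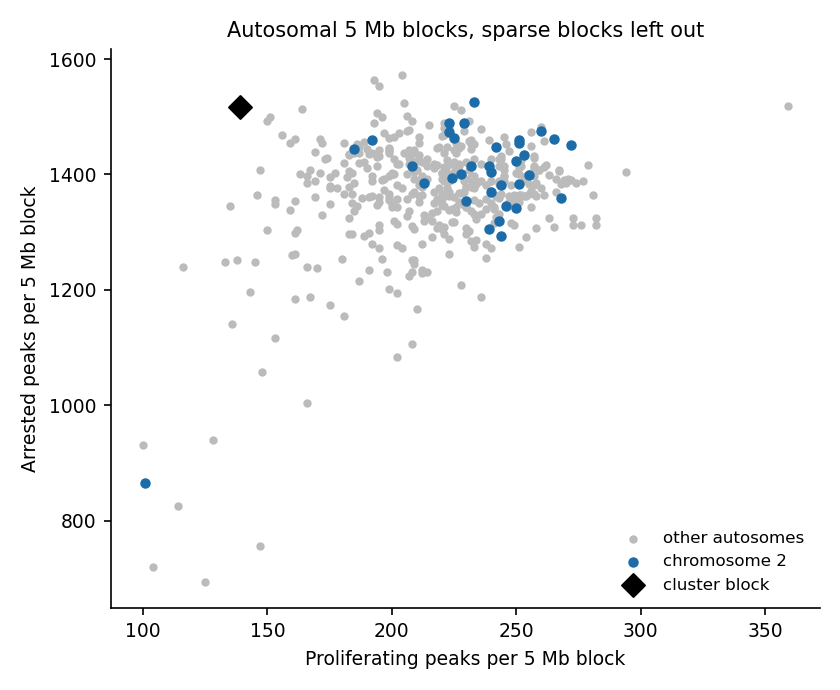
Arrested peaks (vertical axis) against proliferating peaks (horizontal axis) in each of 464 complete autosomal 5 Mb blocks, sparse blocks left out, 1 library per growth state; neither axis starts at 0. The black diamond is the cluster block (139 proliferating, 1517 arrested peaks), and blue points are other blocks of chromosome 2.

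Covered length gave the same order as peak number. Proliferating peaks covered 22.4 kb of the block, or 0.447% of it, against 0.753% of the other blocks, a ratio of 0.594. Arrested peaks covered 356 kb, or 7.12%, against 6.26%, a ratio of 1.14. In arrested cells this was the largest covered length of the 36 blocks, and the others reached at most 343 kb. In proliferating cells the covered length ranked 34 of 36, again above only the first and the last complete block of the chromosome.

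At 1 Mb, the shortage of proliferating peaks was seen in each window of the block. The block's 5 megabases held 32, 26, 26, 23 and 32 proliferating peaks from 85 Mb upward. The megabase just before the block held 59 and the one just after it 52. Of 171 other 1 Mb windows of chromosome 2, after 5 sparse ones were left out, the median was 48 (quartiles 40.5 and 54), and 11 held 32 peaks or fewer. All 5 windows of the block were thus among the poorest of the chromosome, although other windows as poor existed, such as those from 96 to 99 Mb with 32, 31 and 30.

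Arrested peaks in the same 5 megabases numbered 313, 302, 304, 314 and 284. The median of the other windows was 284 (quartiles 268 and 298), so 4 of the 5 lay above the upper quartile and the fifth lay at the median. The megabase before the block held 272 arrested peaks and the one after it 220. Arrested peaks per proliferating peak were 9.78, 11.6, 11.7, 13.7 and 8.88 in the 5 windows, against a median of 6.02 and a range of 3.91 to 11.7 in the others. The window from 88 to 89 Mb had the highest ratio of the 181 windows of the chromosome. Of the 171 other windows, 10 had a ratio at or above the lowest in the block.

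At 250 kb the lowest proliferating counts lay in the interior of the block. The 20 windows inside held 4 to 11 proliferating peaks with a median of 7. The 30 windows on the left held 6 to 19 with a median of 12, and the 30 on the right held 6 to 18 with a median of 11. The ranges overlapped. The outermost windows inside the block held 11 and 10 on the left and 10 and 9 on the right, and those between them held 4 to 10. Arrested peaks ranged from 62 to 94 inside (median 73.5), from 55 to 85 on the left (67) and from 28 to 86 on the right (68.5). The 28 belonged to the window directly to the right of the block, which also held 8 proliferating peaks.

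**Figure D3:**
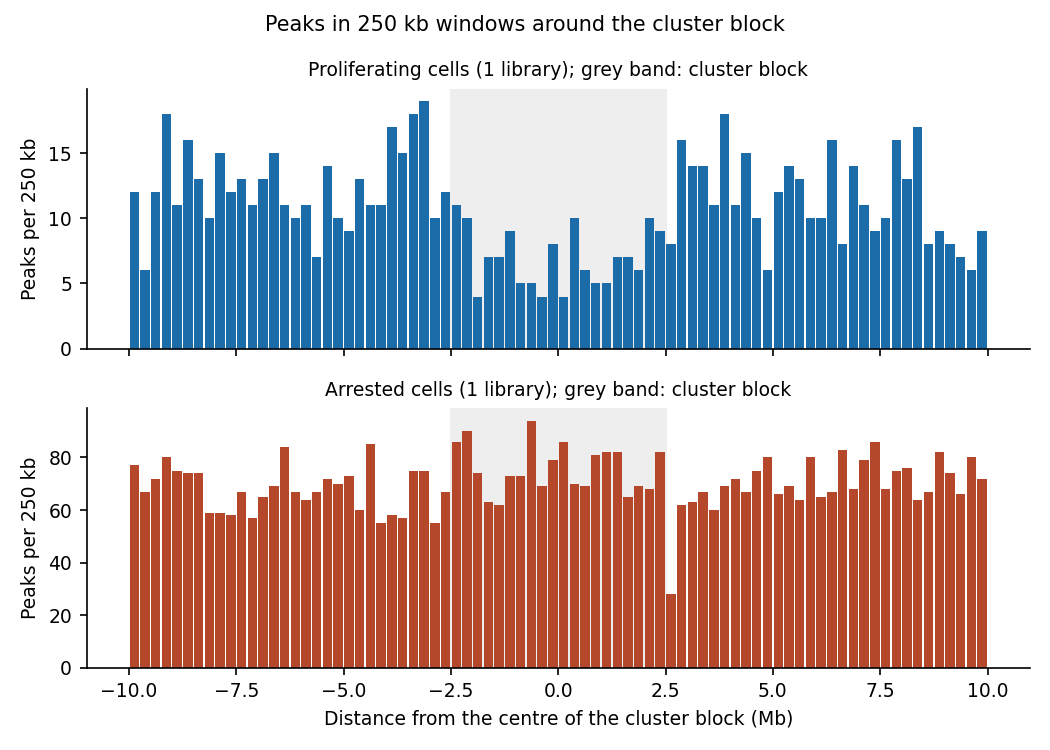
Number of peaks (vertical axes) in 250 kb windows by distance from the centre of the cluster block in Mb (horizontal axis), for proliferating (top) and arrested cells (bottom), 1 library each; the grey band marks the block. Proliferating windows inside the band hold 4 to 11 peaks with a median of 7, against medians of 12 and 11 on the left and right, and arrested windows inside have a median of 73.5 against 67 and 68.5.

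In 100 kb windows the block held 2.78 ± 1.62 proliferating peaks (mean and SD over 50 windows), against 4.59 ± 2.38 over 1750 windows of the other blocks. Proliferating peaks were absent from 3 of the 50 windows (6.00%), against 3.49% elsewhere. The 1750 windows include those of the sparse first and last complete blocks, and 36 of them (2.06%) held no arrested peak. No window of the block lacked arrested peaks, so the values elsewhere are not from windows of the same kind only. The first 2 of the empty windows, from 87000001 to 87100000 and from 87600001 to 87700000, held 26 and 32 arrested peaks. The windows with most proliferating peaks were 86300001 to 86400000 with 7 and 85000001 to 85100000 with 6, and no window of the block came near the 13 reached elsewhere on the chromosome. Arrested peaks numbered 30.3 ± 5.78 per window in the block and 27.5 ± 6.87 elsewhere. Their richest windows were 89800001 to 89900000 with 47 and 86800001 to 86900000 with 39, and the second of these held 1 proliferating peak. The poorest arrested windows of the block still held 19 (89900001 to 90000000) and 20 (89000001 to 89100000).

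Neighbouring proliferating peaks were accordingly far apart. From one start to the next the median distance was 27178 bp in the block (quartiles 10927 and 51015 bp) and 14344 bp in the other blocks. Only 2 of 138 distances (1.45%) were under 1000 bp, against 4.41% elsewhere. The longest distance in the block was 177311 bp. In arrested cells the median distance was 2254 bp in the block and 2504 bp elsewhere, 21.7% of distances were under 1000 bp against 19.6%, and the longest was 24241 bp.

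The widths of proliferating peaks in the block were those of the chromosome. The median was 154 bp in the block (interval 148 to 162) and 154 bp in the other blocks, with quartiles of 134 and 186 bp against 135 and 186 bp. The shortage was seen in each width class with enough peaks to compare. The block-to-rest density ratio was 0.623 below 150 bp (interval 0.477 to 0.801), 0.575 from 150 to below 200 bp (0.427 to 0.758) and 0.665 from 200 to below 300 bp (0.433 to 0.979). At 300 bp and above the block had no peak, and its widest, at 280 bp, was narrower than the widest peak of each other complete block of chromosome 2. Elsewhere 0.959% of peaks measured 300 to below 500 bp. A count of 0 among 139 peaks allows a share of up to 2.16%, so this difference was not detectable at this number of peaks.

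Arrested peaks in the block were slightly wider. Their median was 168 bp (interval 166 to 171) against 166 bp, with upper quartiles of 305 and 289 bp. The narrowest width the list contains, 144 bp, made up 9.03% of the block's peaks and 11.6% of the others. Below 150 bp, peaks were about as dense in the block as elsewhere, at a ratio of 0.958 (interval 0.848 to 1.08). The ratio was 1.08 from 150 to below 200 bp (0.998 to 1.17), 1.22 from 200 to below 300 bp (1.06 to 1.39), 1.18 from 300 to below 500 bp (1.06 to 1.32) and 1.42 at 500 bp and above (1.06 to 1.85, 56 peaks). The classes whose interval lay above 1 were those of 200 bp and more, and differences between classes were not tested.

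Each peak also has a score set by the authors, on a scale that no source used here states, so scores are compared only within a list. In proliferating cells the median score was 24.0 in the block (interval 23.4 to 25.2) and 24.2 in the other blocks, close to the lowest in the block, 20.06. The density ratio was 0.643 for scores from 20 to below 25 (interval 0.509 to 0.802), 0.527 from 25 to below 30 (0.337 to 0.787) and 0.632 from 30 to below 50 (0.439 to 0.882). The ratio lay below 1 in each class. No proliferating peak in the block reached a score of 50, while 1.79% of those in the other blocks did. The limit for a count of 0 is again 2.16%, so a difference in this share was not detectable. As a density, the ratio for scores from 50 to below 100 was 0 (interval 0 to 0.908), below 1 like those of the lower classes. The block's highest proliferating score, 49.28, was the lowest maximum among the 36 blocks.

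In arrested cells the median score was 102 in the block (interval 97.5 to 106) and 97.5 in the other blocks, and both had quartiles of 72.2 and 154. A score of at least 50 was reached by 1290 block peaks (85.04%, Wilson interval 83.2 to 86.7), against 86.5% elsewhere. A score of at least 200 was reached by 12.5% (interval 11.0 to 14.3), against 12.2%. By score the arrested peaks of the block differed from those of the other blocks by no more than counting error in each of these shares. Scores repeated often: the commonest, 80.38, was shared by 104 block peaks (6.86%), against 7.30% elsewhere.

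**Figure D4:**
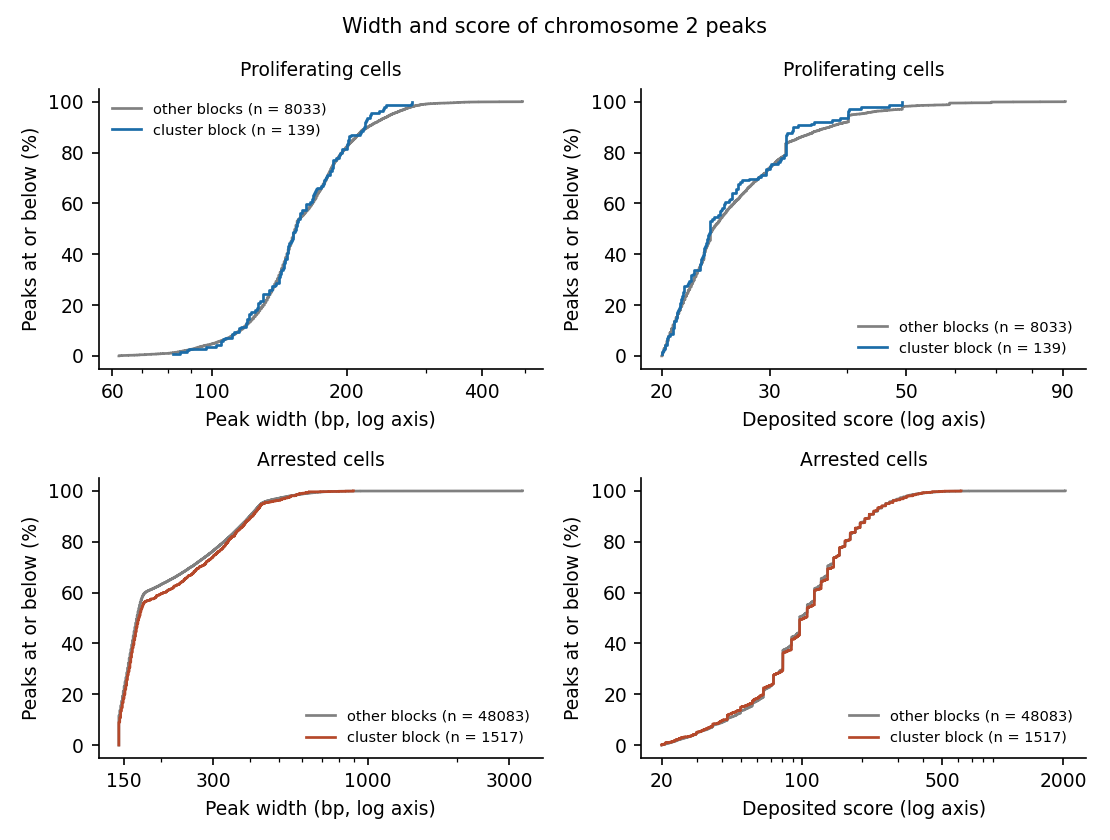
Cumulative percentage of chromosome 2 peaks (vertical axes) by width in bp (left) and by deposited score (right), both on log axes, for proliferating (top) and arrested cells (bottom), with the cluster block in colour and the other complete blocks in grey. Median widths are 154 and 154 bp in proliferating and 168 and 166 bp in arrested cells, block first, and the curves run close together in all 4 panels.

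The 10 strongest proliferating calls of the block measured 82 to 220 bp. A score of 49.28 was given to a 122 bp peak (chr2:86329341-86329462) and to an 82 bp peak (chr2:86545355-86545436), the narrowest of the block, both at rank 1904 in the whole list. They were followed by peaks of 220 bp (chr2:89398478-89398697, score 46.93), 202 bp (chr2:88356903-88357104, 42.19) and 214 bp (chr2:85408483-85408696, 40.32). A score of 40.27 was shared by 4 peaks, at 85189230, 85192701, 87328225 and 87483963, with widths of 97, 85, 89 and 115 bp. The last of the top 10 measured 130 bp (start 87908241, score 39.02). Of these 10, 1 overlapped an arrested peak, a share near that of all proliferating peaks of the block (13.7%): the 97 bp peak at 85189230 lay wholly inside a 522 bp arrested peak with a score of 148.39.

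The 10 strongest arrested calls measured 146 to 177 bp, and most of them were narrower than the block's median of 168 bp. The top score of 621.84 was that of a 149 bp peak (chr2:85346242-85346390) at rank 268 in the whole list. Next came peaks of 164 bp (chr2:88071602-88071765, score 511.91), 146 bp (chr2:87506852-87506997, 498.52) and 177 bp (chr2:86732737-86732913, 485.20). A score of 445.76 was shared by 4 peaks of 146 to 158 bp, starting at 86836511, 87692402, 89256187 and 89324195. The top 10 ended with peaks at 86159584 (175 bp, score 432.78) and 86000519 (158 bp, score 419.89). None of the 10 overlapped a proliferating peak, and 1.25% of all arrested peaks of the block did.

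The widest calls were not the strongest. In arrested cells the widest peak of the block ran over 895 bp (chr2:88908674-88909568) with a score of 68.32, rank 1165 of the block's 1517. It was followed by peaks of 839 bp (start 87644928, score 79.47), 796 bp (85451838, 183.00), 741 bp (89300642, 169.67) and 693 bp (89508065, 147.28). In proliferating cells the widest was the 280 bp peak at 89345900, whose score of 20.26 was rank 135 of 139. The next 4 measured 279, 245, 242 and 241 bp, with scores of 31.99, 23.26, 23.44 and 23.64. None of these 10 wide peaks overlapped a peak of the other list, a number too small to set against the shares over the whole block.

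Few peaks of the block overlapped a peak of the other growth state. Of the 139 proliferating peaks, 19 (13.7%, Wilson interval 8.93 to 20.4) shared at least 1 bp with an arrested peak, against 11.2% in the other blocks. Of the 1517 arrested peaks, 19 (1.25%, interval 0.803 to 1.95) shared at least 1 bp with a proliferating peak, against 1.87%. Both values of the other blocks lay inside the block's counting intervals. How many overlaps peaks placed at random in lists of this density would give was not computed. When 50% of both peaks had to be shared, the shares were 3.60% and 0.330%. Arrested peaks of the block under 150 bp had no partner among 279 (a count of 0 allows up to 1.08%), and 1.39% had one elsewhere. A proliferating peak of the block lay 710 bp from the nearest arrested peak at the median, against 930 bp elsewhere, and an arrested peak lay 11741 bp from the nearest proliferating one, against 7177 bp. Shares and distances counted from arrested peaks depend on the density of proliferating peaks, which was lower in the block. They were not adjusted for it and are not separate from that result. Arrested peaks are dense enough that 57.6% of the block's proliferating peaks, and 51.9% of those elsewhere, had one within 1000 bp.

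The scores of the 19 pairs varied widely within the block. The pair whose lower rank within the block was best joined a 185 bp proliferating peak (chr2:89301463-89301647, score 29.98, rank 37) to a 163 bp arrested peak (chr2:89301546-89301708, score 284.64, rank 66), over 102 bp. The next joined chr2:89176357-89176556 (score 35.05, rank 13) to chr2:89176331-89176505 (score 250.08, rank 98), over 149 bp. In the third pair the proliferating peak chr2:88057931-88058097 (score 32.54) and the 447 bp arrested peak starting at 88058097 (score 193.70) met in 1 bp. The fourth was the pair at 85189230 named above, and the fifth joined chr2:86964221-86964358 (score 22.09) to chr2:86964097-86964262 (score 139.76), over 42 bp. The proliferating members of the 19 pairs had a median score of 26.4, and the other 120 proliferating peaks one of 23.95. The arrested members had a median width of 213 bp and a median score of 97.5, and the other 1498 arrested peaks had medians of 168 bp and 104. Members of the pairs were picked by an overlap of at least 1 bp, which a wider peak meets more easily. These differences were not tested.

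The limits of the block at 85 and 90 Mb are round numbers. On the left, the last proliferating peak outside started at 84999052 (score 20.98) and the first inside at 85003219 (21.53). The arrested peaks there started at 84999560 (88.24) and 85000643 (88.79). On the right, the last proliferating peak inside started at 89985157 (20.51) and the first outside at 90086329 (21.91), and the arrested ones started at 89996560 (20.07) and 90003588 (97.45). Moving the block by 1 Mb to the left or right gave proliferating ratios of 0.725 and 0.694, and arrested ratios of 1.09 and 1.04, the last with an interval of 0.983 to 1.09. The interval of the arrested ratio thus reached no difference with the block moved to the right, and the proliferating ratio lay below 1 at both positions.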

How the data were processed

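The authors deposited 1 peak list per immunoprecipitate, with a score per peak. The submitters' processing notes name Bowtie2, MACS2, HOMER, bedtools and mm9. Not given in the sources used here: their settings, the scale of the score, the handling of duplicate reads and the use of the inputs. Read counts are not part of the lists, so depth is unknown. Nothing was adjusted for how well reads map or for copy number, and their part in the results was not tested. Inputs were not analysed here, and no sample of the study was labelled wild type.

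Peaks were assigned to 5 Mb blocks by their start, and blocks running past the last peak of a chromosome were left out. Coordinates are mm9, written 1-based. Ratios of density have exact conditional binomial intervals, shares Wilson intervals and medians order-statistic intervals, all at 95% and covering counting error only. The limit for a count of 0 is 3 counts of the total. Named peaks are the 10 highest scores and the 5 widest peaks of each list in the block, and the 5 pairs ranking best in both. The block, rule and alternatives were chosen with earlier results of these data known. Alternatives were other block borders, assignment by midpoint, score limits, merging of peaks, other comparison blocks and stricter overlaps. The code was tested on simulated data. Software was Python 3.11.15, SciPy 1.17.1, pandas 2.3.3, matplotlib 3.10.9 and numpy 2.4.6.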

Additional observations from a re-analysis of the deposited data

Results flagged for a closer look

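The block lay on opposite sides of the rest of chromosome 2 in the growth states by 3 measures. Its peak density was 0.606 times that of the other blocks in proliferating and 1.10 times in arrested cells. Its covered length was 0.594 and 1.14 times theirs. Its median score was 0.990 and 1.05 times theirs, where both intervals reached no difference. With 1 library per growth state, the difference between the states was not tested.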

How the results depend on the processing

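No replicate could be left out, and no paired analysis was possible because each growth state has 1 library. Of 101 values under the alternatives, 80 lay inside the interval of the value in the report, 21 moved and 0 turned to the other side of the rest of the chromosome among results whose interval excluded no difference. With the block moved 1 Mb to the left, the proliferating density ratio was 0.725 and the covered ratio 0.705. The ratio of arrested to proliferating peaks was then 9.07, against 6.01 in the other blocks. With the block moved to the right, the arrested density ratio was 1.04 and the covered ratio 1.06. The ratio of arrested to proliferating peaks was then 8.96, against 5.99 in the other blocks. Keeping scores of 50 or more left 0 proliferating peaks in the block, so the proliferating density and covered ratios and the arrested share of overlap were 0, and no proliferating median or share and no ratio of peak numbers could be given. In the upper 50% by score the arrested median score ratio was 0.983 and the arrested share of overlap 0.759%. Merging within 1000 bp gave an arrested width ratio of 1.13 and an arrested share of 2.09%. It gave 8.02 arrested peaks per proliferating one in the block, against 4.70 in the other blocks. When 50% of the peak had to be shared, the proliferating share was 6.47% and the arrested one 0.330%; when 50% of both peaks had to be, they were 3.60% and 0.330%. Reducing the arrested list to the size of the proliferating one, chosen after seeing the data, kept only its highest-scoring peaks. This was thus a score limit and not a random thinning to equal size. It left 238 arrested peaks in the block and moved the ratio of peak numbers to 1.71, against 0.956 in the other blocks. The arrested covered ratio was then 1.06 and the arrested density ratio 1.08 with an interval of 0.950 to 1.23. The proliferating share of overlap was then 2.16%. Stricter overlaps can only lower the shares. Apart from this, the cause was not tested.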
